A study of Mus musculus with 36 samples.

Results

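NF-κB is a family of dimeric transcription factors that inhibitors of the IκB family hold inactive in resting cells, and 10 genes of this system were followed here across lung macrophages and monocytes of mice that breathed concentrated PM2.5 or filtered air (FA). The genes were taken by symbol from the table of 27562 gene rows. They were 3 IκB inhibitors that hold NF-κB dimers in the cytoplasm (Nfkbia, Nfkbib and Nfkbie), 3 atypical IκB proteins that act in the nucleus (Nfkbid, Nfkbiz and Bcl3), Tnfaip3, which encodes the ubiquitin-editing enzyme A20, and 3 subunit genes (Nfkb1, Nfkb2 and Relb). All 10 were in the table, all had a mean of at least 1 FPKM (fragments mapped to a gene, scaled to its length and to the size of the library) in every model described here, and none was listed at 0 in any of the 36 libraries.

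The libraries came from male chimeric C57BL/6 mice (CD45.2, of the substrain C57BL/6J by the study's methods) that had been irradiated with the chest shielded by lead, given busulfan, and then given bone marrow of CD45.1 donors (B6.SJL-Ptprca Pepcb/BoyJ). Shielding spares the resident cells of the lung, so CD45.2 alveolar macrophages (AΦ) are tissue-resident (TR-AΦ) and CD45.1 AΦ are derived from bone marrow (BM-AΦ). Circulating monocytes of such chimeras are mostly of the donor, so CD45.2 lung monocytes are the host cells these animals still had, whether long-lived or newly made. The 12 groups of 3 libraries were TR-AΦ and CD45.2 monocytes after 4 weeks of FA or PM2.5, and TR-AΦ, BM-AΦ, CD45.2 monocytes and CD45.1 monocytes after 32 weeks of FA or PM2.5. AΦ were sorted as CD64+ CD11c high CD11b low cells and monocytes as Ly6G- MHC II- CD64 low CD11b high cells from enzymatically digested lungs. The origin of the 4-weeks cells is given by the study and not by the sample labels, and the labels 1 and 2 of monocytes at 32 weeks were taken to mean CD45.1 donor and CD45.2 host cells, as they do for AΦ. Groups of 3 were 3 mice. By the study 3 mice were taken for each air and time, so populations of one air and time may share mice. The labels do not say which libraries came from the same mouse. Weeks of exposure went together with the age of the mice, with total dose under PM2.5 and with time since the start. These cannot be told apart. The study called the genes that differed between the time points under FA most likely age-related. Whether the time points shared a day of sorting is not given in the sources used here. In sorted bulk samples a change in RNA per cell and a change in which cells were sorted cannot be told apart either.

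In resting cells an IκB masks the NF-κB dimer. Signals from Toll-like receptors, the IL-1 receptor or TNF receptors activate the IKK kinase, the IκB is degraded, and the freed dimer enters the nucleus. Several genes that NF-κB switches on, Nfkbia and Tnfaip3 among them, encode proteins that shut the pathway off again, so their transcripts are widely read as a sign of recent NF-κB activity. In macrophages IκBζ, the product of Nfkbiz, is needed for induction of a subset of secondary response genes, and Bcl3 binds p50 and p52 dimers on DNA.

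The labelled cell types carried their markers. In all 3 comparisons of AΦ with monocytes, 12 of 13 tested AΦ markers were higher in AΦ and 10 of 10 monocyte markers were lower. The lists include Itgax and Itgam, the genes of the sorting markers CD11c and CD11b. The 4-weeks libraries numbered 2 stood apart from the rest in neutrophil and NF-κB target genes, in both cell types and both exposures. Among monocytes, the summed FPKM of 9 neutrophil genes was 410 to 1158 in these libraries and 33.1 to 123 in the other 16, that of 8 T and NK cell genes was 79.5 to 90.7 against 0.21 to 14.4, and that of 9 dendritic cell genes, which include MHC II, was 120 to 314 against 1078 to 4999. Among AΦ, the neutrophil sum was 35.2 to 68.2 against 11.99 to 23.1. The T and NK cell sum (4.31 to 8.08 against 0 to 4.49) and the dendritic cell sum (1507 to 1879 against 709 to 3274) overlapped there. Although monocytes were gated MHC II-, the dendritic cell sum of the other 16 monocyte libraries was not below that of AΦ. Which cells these transcripts came from was not tested. The summed FPKM of 26 NF-κB target genes was also highest in these libraries, at 4972 to 5823 against 1097 to 3651 in AΦ and at 8379 to 9218 against 1716 to 5815 in monocytes. In TR-AΦ at 4 weeks the library numbered 2 was the highest of its 3 for 7 of the 10 genes under FA and for 9 of 10 under PM2.5. In CD45.2 monocytes it was the highest for 4 under FA, where the library numbered 0 was for 6, and for 8 under PM2.5. Counts of the 10 genes called over time and between cell types are therefore given with and without these libraries. Counts of genes without overlap and counts from gene lists are given with them only.

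The windows around the transcription starts of 4 genes are shown because each carries κB-like letters, the kind of site that Rel dimers bind. RefSeq windows of 300 bases, from 250 bases before the start to 50 after, existed for 7 of the 10 genes (GRCm38.p6), and Nfkb1, Nfkbiz and Relb had none in the table. The 9 letters GGNNTTTCC, or the reverse complement GGAAANNCC, occurred in 4 of these 7 genes and in 6.63% of 26994 genes. The letters were chosen after a search with a longer form had been seen, so these shares are no test of enrichment. Positions count from 0 at the RefSeq transcript start of the window, which for Tnfaip3, Nfkb2 and Bcl3 is another base than the gene boundary given by GENCODE. Nfkbia (chr12:55492598-55492897, minus strand) had matches at -178 and -29, Tnfaip3 (chr10:19015361-19015660, minus strand) at -24 and -12, Nfkb2 (chr19:46304487-46304786, plus strand) at -10 and Bcl3 (chr7:19822706-19823005, minus strand) at -104. They are written 5′ to 3′ along the gene with the matches in capitals.
Nfkbia: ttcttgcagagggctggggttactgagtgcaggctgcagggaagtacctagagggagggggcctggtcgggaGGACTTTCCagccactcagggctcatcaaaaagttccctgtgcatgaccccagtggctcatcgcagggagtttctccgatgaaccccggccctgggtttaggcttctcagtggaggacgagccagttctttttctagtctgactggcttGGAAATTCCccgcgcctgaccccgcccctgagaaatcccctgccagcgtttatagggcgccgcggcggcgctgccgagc
Tnfaip3: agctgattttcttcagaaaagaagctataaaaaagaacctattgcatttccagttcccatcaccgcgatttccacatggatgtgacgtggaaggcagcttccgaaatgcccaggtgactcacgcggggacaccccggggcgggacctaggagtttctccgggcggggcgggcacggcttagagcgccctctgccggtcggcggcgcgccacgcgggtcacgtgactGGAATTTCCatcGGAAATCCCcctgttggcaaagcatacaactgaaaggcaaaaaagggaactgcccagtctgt
Nfkb2: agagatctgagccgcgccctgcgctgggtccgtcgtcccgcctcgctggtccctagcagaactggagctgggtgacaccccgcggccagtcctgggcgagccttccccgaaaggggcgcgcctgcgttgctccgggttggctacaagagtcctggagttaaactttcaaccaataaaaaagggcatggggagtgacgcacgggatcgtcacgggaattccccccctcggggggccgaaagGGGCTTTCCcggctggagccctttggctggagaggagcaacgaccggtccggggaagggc
Bcl3: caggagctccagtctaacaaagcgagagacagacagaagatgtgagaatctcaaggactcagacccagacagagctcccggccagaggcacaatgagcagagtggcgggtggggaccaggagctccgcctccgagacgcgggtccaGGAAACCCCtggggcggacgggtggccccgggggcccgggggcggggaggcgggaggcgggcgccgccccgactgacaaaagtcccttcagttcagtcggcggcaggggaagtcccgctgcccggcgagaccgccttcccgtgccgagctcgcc
Nfkbia, Tnfaip3 and Nfkb2 each held a match nearer to the start than the one in Bcl3. A further pair of overlapping Nfkb2 windows shared 1 match, and no window of Nfkbib, Nfkbid or Nfkbie did. A match describes letters only, and binding was not measured in these samples.

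Levels per length differed widely among the 10 genes. Over all 36 libraries the mean was 558 FPKM for Nfkbia, 300.2 for Nfkbiz and 237 for Tnfaip3, then 76.5 for Nfkbie, 58.2 for Bcl3, 37.9 for Nfkb1, 33.1 for Nfkbid, 31.7 for Nfkbib, 13.8 for Relb and 9.50 for Nfkb2. The 3 leading genes are all feedback regulators, Relb and Nfkb2 were the lowest, and Nfkb1 stood above Nfkbid and Nfkbib. CD45.2 monocytes at 4 weeks had the highest median of the 6 populations for all 10 genes. TR-AΦ at 4 weeks came second for 4 genes (Nfkbia, Nfkbib, Nfkbid and Tnfaip3), and monocytes at 32 weeks did for the other 6. TR-AΦ at 32 weeks had the lowest median for 9 genes and BM-AΦ at 32 weeks for the other, Nfkb1. Most neighbours in this order overlapped. For Nfkbia, 2 of 5 neighbouring pairs stood apart, CD45.2 monocytes above TR-AΦ at 4 weeks and CD45.1 monocytes above BM-AΦ at 32 weeks. For Tnfaip3 the gap lay between TR-AΦ at 4 weeks and CD45.2 monocytes at 32 weeks, and for Nfkbib and Nfkbid no neighbouring pair was free of overlap. TR-AΦ and BM-AΦ at 32 weeks overlapped in every gene, as did CD45.2 and CD45.1 monocytes at 32 weeks.

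**Figure D1:**
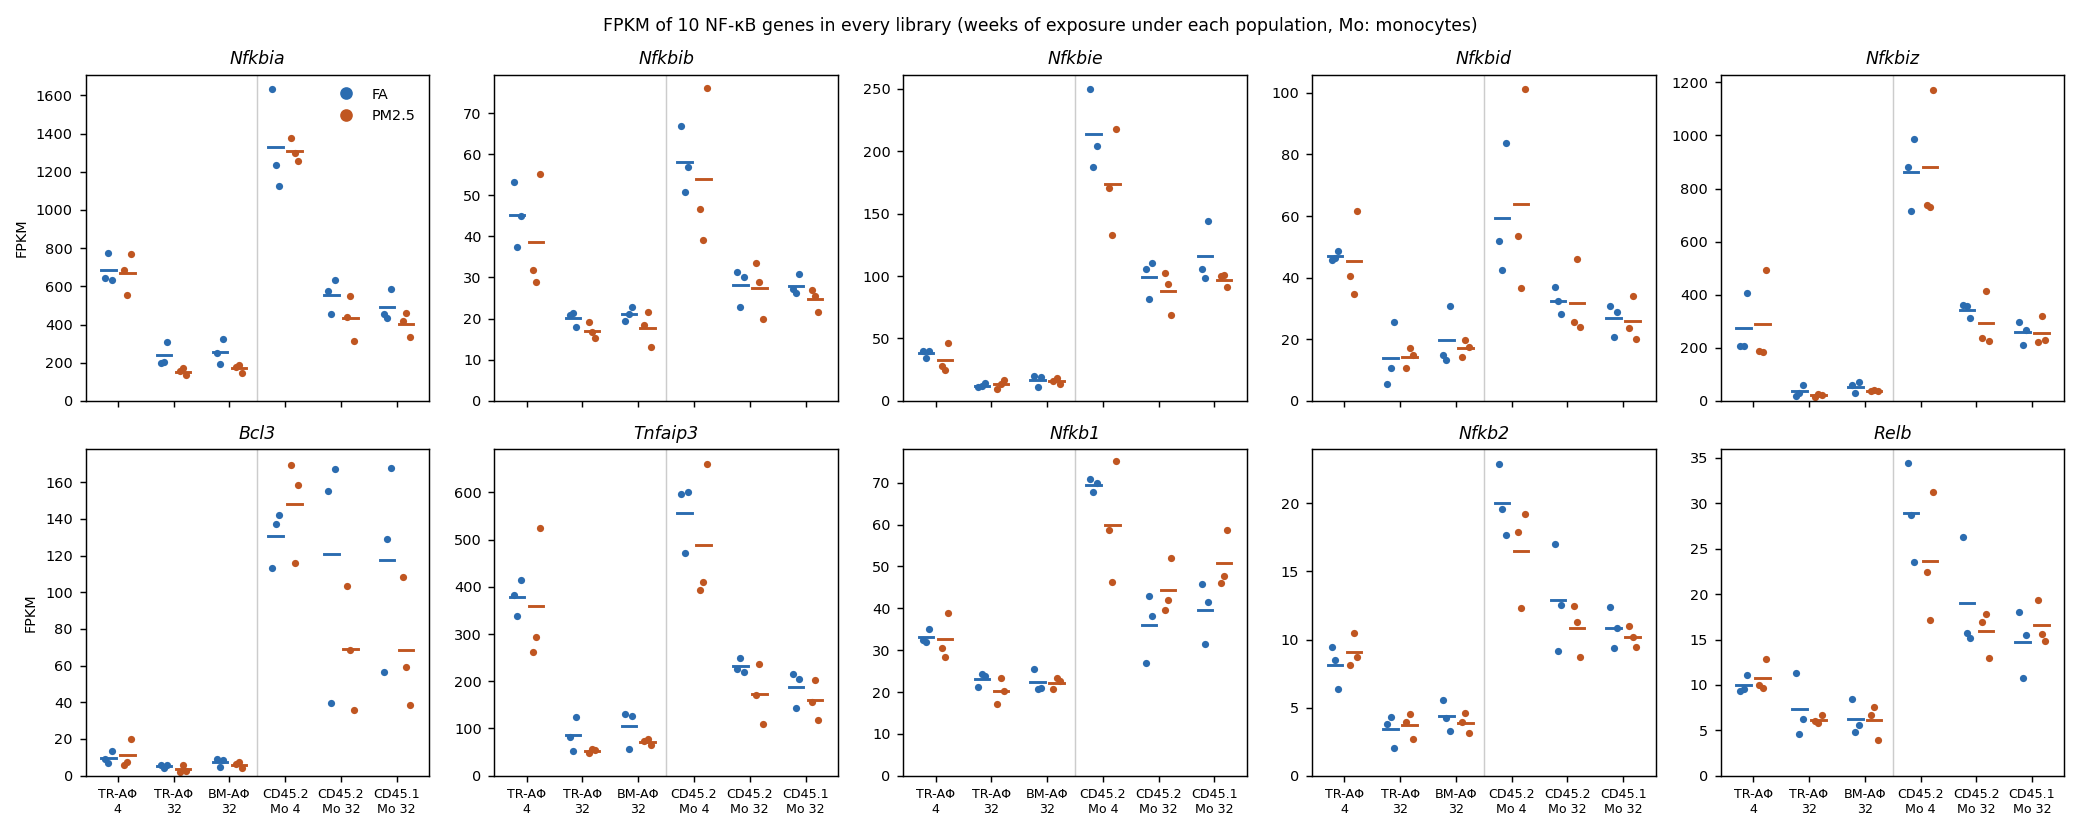
FPKM of the 10 genes (y axis, linear from 0, a scale of its own for each gene) in each of the 36 libraries, by population and weeks of exposure (x axis), with points for libraries, blue for FA and orange for PM2.5, and bars for the mean of 3. Nfkbia lay between 557 and 775 FPKM in TR-AΦ at 4 weeks and between 134 and 310 at 32 weeks, and Bcl3 stayed at or below 19.8 FPKM in all AΦ while monocytes spanned 35.8 to 170.

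In TR-AΦ the transcripts of this system were lower after 32 weeks than after 4 weeks, whichever air the mice breathed. With both exposures in the contrast, 9 of the 10 genes were lower and none was higher, where 3.35% of 12665 tested genes were lower and 5.91% were called in either direction (limma, adjusted p under 0.05). The median log2 fold change of the 10 was -1.24, beside 0.03 over all genes. For 8 of 10 genes every 32-weeks library lay below every 4-weeks library, which was so for 2.31% of all genes tested. Nfkbiz and Tnfaip3 had the largest changes and Nfkb1 and Relb the smallest.

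Nfkbiz (chromosome 16, 55811375 to 55838899, minus strand, mm10) had the steepest fall. Its 4-weeks TR-AΦ libraries read 208, 208 and 405 FPKM under FA and 188, 183 and 492 under PM2.5. At 32 weeks they read 20.02, 29.2 and 60.2 under FA and 14.4, 27.1 and 21.4 under PM2.5. No libraries overlapped, and the highest at 4 weeks were both those numbered 2. The log2 fold change was -3.27 ± 0.33 (SE, 9.65-fold lower on the FPKM + 1 scale, limma adjusted p = 5.45e-05). Tnfaip3 (chromosome 10, 19000910 to 19015657, minus strand) restrains signalling by editing ubiquitin chains on upstream adaptors. It read 382, 339 and 414 FPKM under FA and 261, 293 and 524 under PM2.5 at 4 weeks, and 81.8, 52.4 and 124 and then 47.5, 56.1 and 55.1 at 32 weeks. The groups did not overlap, and Tnfaip3 fell by 2.44 ± 0.24 on the log2 scale (5.42-fold, limma adjusted p = 5.23e-05).

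Among the cytoplasmic inhibitors, Nfkbia (chromosome 12, 55489410 to 55492647, minus strand), which encodes the rapidly resynthesized IκBα, read 643, 775 and 631 FPKM under FA and 687, 557 and 769 under PM2.5 at 4 weeks. At 32 weeks it read 201, 205 and 310 under FA and 156, 171 and 134 under PM2.5. It fell by 1.83 ± 0.15 (3.55-fold, limma adjusted p = 1.09e-05), and the lowest 4-weeks library stood above the highest at 32 weeks. Nfkbie (chromosome 17, 45555703 to 45563169, plus strand), encoding IκBε, ranged from 24.5 to 46.6 FPKM with a median of 36.9 at 4 weeks and from 9.83 to 16.9 with a median of 12.7 at 32 weeks. It was 2.61-fold lower (log2 fold change -1.39 ± 0.18, limma adjusted p = 0.000592). Nfkbib (chromosome 7, 28758251 to 28767512, minus strand), encoding IκBβ, had a median of 41.2 FPKM (28.9 to 55.1) at 4 weeks and 18.5 (15.2 to 21.4) at 32 weeks. Its log2 fold change was -1.10 ± 0.16 (limma adjusted p = 0.00111). All 3 cytoplasmic inhibitors separated the time points without overlap.

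The other nuclear IκB genes had lower medians than Nfkbiz at both time points. Nfkbid (chromosome 7, 30421732 to 30428746, plus strand), encoding IκBNS, had a median of 46.1 FPKM (34.6 to 61.5) at 4 weeks and 12.8 (5.54 to 25.5) at 32 weeks, a log2 fold change of -1.75 ± 0.29 (limma adjusted p = 0.00349). Bcl3 (chromosome 7, 19808462 to 19822770, minus strand) overlapped between the time points, at 5.78 to 19.8 FPKM with a median of 8.38 and at 1.91 to 5.95 with a median of 4.94. Its log2 fold change of -1.08 ± 0.29 was just past the threshold (limma adjusted p = 0.0451). The call on Bcl3 was lost on leaving out any of 10 of the 12 libraries one at a time, and it held without the 4-weeks PM2.5 library numbered 0 or the 32-weeks PM2.5 library numbered 1.

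Of the subunit genes, Nfkb2 (chromosome 19, 46304320 to 46312385, plus strand), the precursor of p52, had a median of 8.61 FPKM (6.36 to 10.5) at 4 weeks and 3.89 (2.06 to 4.56) at 32 weeks. It was 2.13-fold lower (log2 fold change -1.09 ± 0.16, limma adjusted p = 0.00163). Nfkb1 (chromosome 3, 135584655 to 135691547, minus strand), the precursor of p50, had a median of 32.1 FPKM (28.4 to 38.8) and then 22.3 (17.2 to 24.4), a fall of 0.58 ± 0.10 on the log2 scale (limma adjusted p = 0.00377). Relb (chromosome 7, 19606217 to 19629438, minus strand), the partner of p52 in the non-canonical pathway, had medians of 9.80 and 6.09 FPKM with overlapping libraries and did not pass (log2 fold change -0.59 ± 0.19, limma adjusted p = 0.0850). Relb passed without the 32-weeks FA library numbered 0, at a log2 fold change of -0.75. The loci that the table lists for Nfkb2, Nfkb1, Nfkbib and Bcl3 also span Psd, Gm43430, Ccer2 and Gm16174, so the values of these 4 genes could include reads of a neighbour. Exact two-sided permutation tests of 6 libraries against 6 gave p = 0.00216, the smallest they can give, for the 8 genes without overlap, p = 0.00866 for Bcl3 and p = 0.0130 for Relb.

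Within each air the same direction was seen. Under FA alone 7 of 10 genes were lower (0.632% of all genes), under PM2.5 alone also 7 (0.782%), and in each air 9 of 10 genes separated the 3 libraries of each time point (7.94% and 8.23% of all genes). The called counts ran from 3 to 5 under FA and from 3 to 7 under PM2.5 with single libraries left out, and were 1 in each air when only the libraries compared were fitted. An exact test of 3 libraries against 3 cannot give p below 0.1. Without the 4-weeks libraries numbered 2, 8 of 10 genes remained lower with both exposures in the contrast. Bcl3 then lost its call (log2 fold change -0.72, limma adjusted p = 0.113), and Nfkbiz was at -2.88 and Tnfaip3 at -2.25. The count was then 6 under FA alone and dropped to 3 under PM2.5 alone. Over all genes, 43.3% of those called were higher at 32 weeks, and 30.1% were when each library was centred on its median gene.

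CD45.2 monocytes had lower values at 32 weeks for the same system, again led by the feedback regulators. With both exposures, 8 of 10 genes were lower and none was higher, where 7.83% of 12856 tested genes were lower and 14.9% were called in either direction. Their median log2 fold change was -0.92, beside -0.05 over all genes. The groups did not overlap for 5 genes (Nfkbia, Nfkbib, Nfkbie, Nfkbiz and Tnfaip3), against 3.66% of all genes in that direction. Of all genes called, 47.4% were higher, and 65.5% were with median-centred libraries.

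In these monocytes Nfkbia read 1635, 1237 and 1126 FPKM under FA and 1376, 1297 and 1255 under PM2.5 at 4 weeks, and 574, 456 and 631 and then 442, 547 and 313 at 32 weeks. It fell by 1.44 ± 0.17 on the log2 scale (2.72-fold, limma adjusted p = 0.000138). Nfkbiz read 880, 716 and 986 FPKM under FA and 740, 729 and 1172 under PM2.5 at 4 weeks, and 361, 357 and 311 and then 235, 413 and 226 at 32 weeks. Its fall was 1.46 ± 0.19 (2.76-fold, limma adjusted p = 0.000310). For both genes every 4-weeks library was above every 32-weeks library. Tnfaip3 went from a median of 534 FPKM (393 to 660) to 223 (110 to 248), a fall of 1.39 ± 0.21 (2.62-fold, limma adjusted p = 0.000696).

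Nfkbie had a median of 196 FPKM (133 to 249) at 4 weeks and 97.8 (68.6 to 111) at 32 weeks (log2 fold change -1.03 ± 0.16, limma adjusted p = 0.000793). Nfkbib had medians of 53.7 and 29.5 FPKM (log2 fold change -0.98 ± 0.17, limma adjusted p = 0.00177). Neither of these inhibitors overlapped between the time points. Nfkb1 had medians of 68.9 and 40.7 FPKM and fell by 0.68 ± 0.15, and Nfkb2 had 18.5 and 11.9 and fell by 0.59 ± 0.15 (limma adjusted p = 0.00786 and 0.0175). Nfkbid passed with overlapping libraries at medians of 52.7 and 30.4 FPKM (log2 fold change -0.86 ± 0.26, limma adjusted p = 0.0358). Its call was lost on leaving out any of 9 of the 12 libraries in turn, the exceptions being the FA and PM2.5 4-weeks libraries numbered 1 and the PM2.5 32-weeks library numbered 1. Bcl3 (log2 fold change -0.78 ± 0.39, limma adjusted p = 0.224) and Relb (-0.56 ± 0.19, limma adjusted p = 0.0578) did not pass. Relb passed without the 4-weeks PM2.5 library numbered 1 (-0.66) or the 32-weeks FA library numbered 0 (-0.68).

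Bcl3 stood out for its spread. In CD45.2 monocytes at 32 weeks it read 155, 39.5 and 167 FPKM under FA and 103, 68.3 and 35.8 under PM2.5, so libraries of one group spanned a wider range than the medians of the time points, 140 and 85.7 FPKM. Under FA alone 6 of 10 genes were lower in CD45.2 monocytes (4.08% of all genes) and under PM2.5 alone 4 (0.747%). These counts ran from 3 to 6 and from 1 to 4 with single libraries left out, and were 2 and 0 when only the libraries compared were fitted (limma). The FA split over all genes was 43.4% higher, or 61.0% with median-centred libraries. Without the 4-weeks libraries numbered 2, 6 of 10 were lower with both exposures in the contrast, 5 under FA alone and 1 under PM2.5 alone. Nfkbid (-0.52, limma adjusted p = 0.175) and Nfkb2 (-0.58, limma adjusted p = 0.0559) lost their calls.

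**Figure D2:**
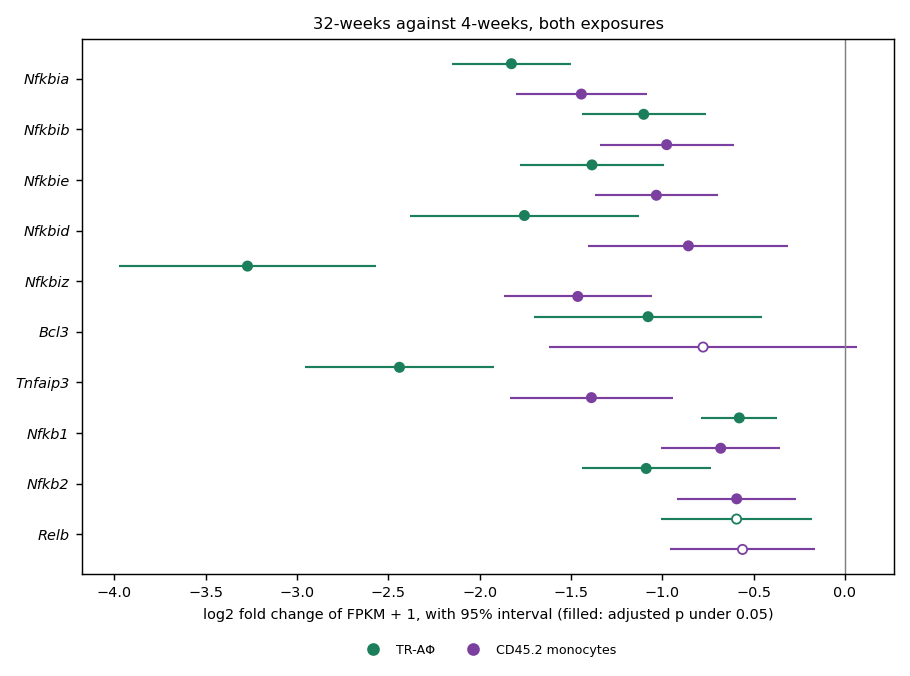
Log2 fold change of FPKM + 1 from 4 to 32 weeks with its 95% interval (x axis) for the 10 genes (y axis), green for TR-AΦ and purple for CD45.2 monocytes, filled where the adjusted p was under 0.05. All 20 points are below 0, and Nfkbiz is at -3.27 in TR-AΦ and at -1.46 in monocytes.

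The difference between the cell types was tested as an interaction of cell type and time in a model of all 36 libraries. The main fit had no term for the mouse, though libraries of both cell types may share mice. A more negative change in TR-AΦ than in CD45.2 monocytes passed for 2 of 10 genes, where 4.35% of 13307 tested genes passed in that direction and 7.88% in either. Nfkbiz differed by -1.81 ± 0.39 (limma adjusted p = 0.00320) and Tnfaip3 by -1.05 ± 0.32 (limma adjusted p = 0.0434). For the other 8 genes the difference was not detectable, including Nfkbid (-0.90 ± 0.40, limma adjusted p = 0.194) and Nfkb2 (-0.50, limma adjusted p = 0.205). Without the 4-weeks libraries numbered 2, Nfkbiz remained past the threshold (-1.58, limma adjusted p = 0.0123) and Tnfaip3 did not (-1.01, limma adjusted p = 0.0938). Tnfaip3 also lost its call on leaving out any of 17 of the 24 libraries singly, and Nfkbid gained one without the 32-weeks FA TR-AΦ library numbered 2 (-1.16). The share of called genes with a positive interaction was 44.8%, or 22.9% with median-centred libraries.

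Other genes of the pathway were read from lists of the same kind. Over all genes 3.35% were lower at 32 weeks in TR-AΦ and 7.83% in CD45.2 monocytes. In TR-AΦ 16 of 24 tested NF-κB target genes were lower at 32 weeks and none was higher, with a median log2 fold change of -1.61. They included the chemokines Cxcl10 (-5.60) and Cxcl1 (-3.84) and the cytokine Il1b (-3.10). Among 11 other Rel and IKK genes 3 were lower and 1 higher. The 3 were Rel (-1.28), which encodes c-Rel, Map3k14 (-0.94), which encodes the kinase NIK of the non-canonical pathway, and Map3k8 (-0.70), a kinase bound by p105. Of 23 upstream adaptors 3 were lower, namely Birc3 (-0.98), Traf3 (-0.63) and Myd88 (-0.31), and of 14 partners of A20 and deubiquitinases 1 was, Tnip1 (-0.45). A single gene does not set the A20 list apart from all genes. In CD45.2 monocytes 15 of 26 targets were lower (median -1.24), among them Il6 (-3.02), Cxcl10 (-2.23) and Slc2a6 (-2.20). There 4 of 11 Rel and IKK genes were lower, with Map3k14 (-1.57), Rel (-1.51) and Rela (-0.72), 7 of 23 adaptors, with Traf1 (-2.21), Ripk2 (-1.60) and Malt1 (-1.59), and 4 of 14 A20 partners, with Tnip3 (-1.38), Tnip1 (-1.26) and Zc3h12a (-0.82). No gene of these 4 lists was higher in monocytes at 32 weeks. With median-centred libraries 1 of the 14 A20 partners was higher and 3 were lower, and 5 of the 23 adaptors were lower.

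Immediate early and stress genes respond to handling of cells among other stimuli. Of 19, 6 were lower at 32 weeks in TR-AΦ (median -0.58, with Egr1 at -2.76, Egr3 at -2.69 and the heat shock gene Hspa1a, nearly identical to Hspa1b and so uncertain, at -2.66) and 3 in CD45.2 monocytes (median -0.16, with Nr4a1 at -1.27, Ier2 at -0.95 and Zfp36 at -0.79), and none was higher. Over all genes 3.35% and 7.83% were lower. The other 13 and 16 did not pass, and with quantile normalization monocytes had 2 lower and a median of -0.04. Their summed FPKM was 5256 to 8866 in TR-AΦ at 4 weeks and 3237 to 6373 at 32 weeks, and 10383 to 15315 and 7866 to 11752 in CD45.2 monocytes. In monocytes 2 of 7 tested genes of the dendritic cell list were higher at 32 weeks, with a summed FPKM of 120 to 2189 at 4 weeks and 3628 to 4853 at 32 weeks. Further marker lists in monocytes gave 3 of 10 monocyte genes lower and 2 of 6 neutrophil genes lower. Of 10 AΦ genes 5 were higher and 3 lower, and their sum was 430 to 782 at 4 weeks and 388 to 1649 at 32 weeks. Beside these marker counts, 908 of all 12856 tested genes were higher in monocytes at 32 weeks and 1006 were lower. With median-centred libraries 1393 were higher. The neutrophil genes Ly6g, Camp and Ngp were listed at 0 in all CD45.2 monocyte libraries at 32 weeks, and none of the 9 was at 0 in all 6 libraries at 4 weeks. The part of these genes and of other cells in the changes of the 10 genes was not tested.

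**Figure D3:**
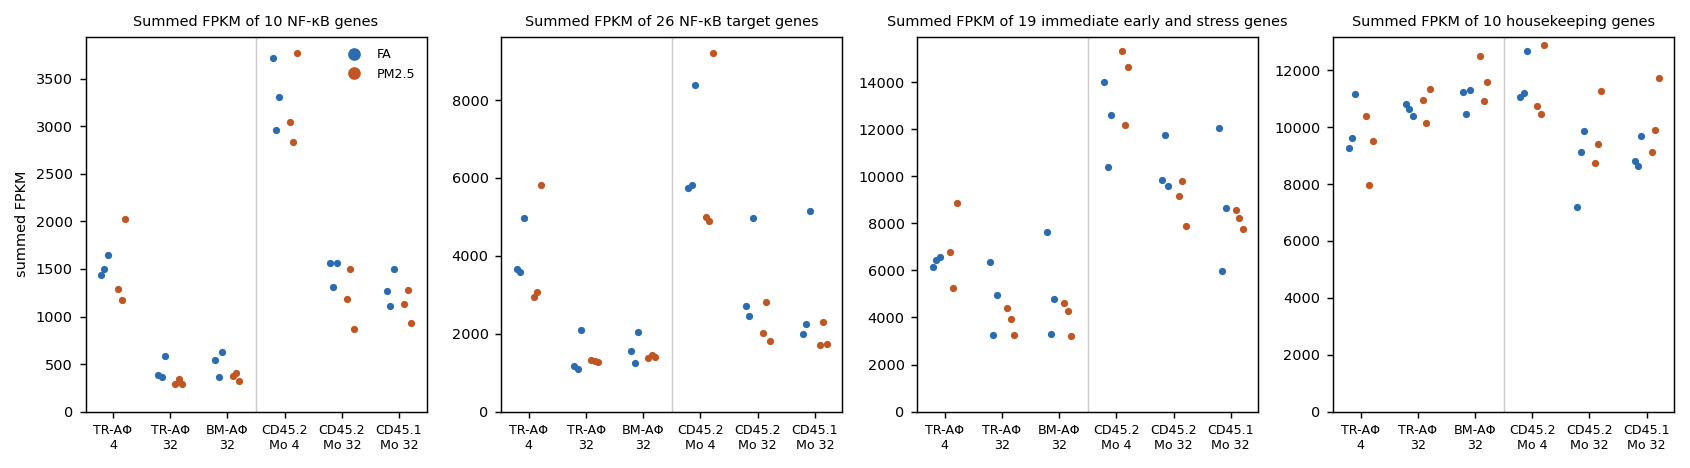
Summed FPKM per library (y axis, linear from 0) of the 10 NF-κB genes, 26 NF-κB target genes, 19 immediate early and stress genes and 10 housekeeping genes, by population and weeks of exposure (x axis), blue for FA and orange for PM2.5. In TR-AΦ the target sum was 2944 to 5823 at 4 weeks and 1097 to 2090 at 32 weeks, while the housekeeping sum was 7951 to 11165 and then 10153 to 11336.

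One ratio of an inhibitor to a subunit gene was computed. The FPKM ratio of Nfkbia to Nfkb1 had a median of 19.8 (18.04 to 24.3) in TR-AΦ at 4 weeks and 8.74 (6.61 to 13.1) at 32 weeks, with no overlap. In BM-AΦ at 32 weeks it was 9.02 (6.42 to 15.3). CD45.2 monocytes had a median of 20.7 (16.1 to 28.0) at 4 weeks and 12.1 (6.03 to 21.3) at 32 weeks, with overlap, and CD45.1 monocytes had 9.80 (5.68 to 14.2). At 4 weeks the ranges of the cell types overlapped.

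AΦ carried less of these transcripts than monocytes of the same origin and time, and the gap was widest for Bcl3. At 4 weeks 8 of 10 genes were lower in CD45.2 AΦ than in CD45.2 monocytes, at 32 weeks 10 of 10, and in CD45.1 cells at 32 weeks 9 of 10. Without the 4-weeks libraries numbered 2 the count at 4 weeks was also 8. The background was high, since 25.5%, 23.7% and 23.8% of 13307 genes were lower and 48.2%, 47.3% and 50.9% were called in either direction. Every AΦ library was below every monocyte library for 7 genes in each comparison (16.1%, 14.0% and 14.7% of all genes), and in all 3 these were Nfkbia, Nfkbie, Nfkbiz, Bcl3, Nfkb1, Nfkb2 and Relb. At 4 weeks 47.0% of all called genes were higher in AΦ, or 59.6% with median-centred libraries. AΦ and monocytes of one air and time may share mice, and the main fit took all libraries as independent.

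Bcl3 read 9.02, 7.17 and 13.5 FPKM under FA and 5.78, 7.73 and 19.8 under PM2.5 in TR-AΦ at 4 weeks, against 113, 137 and 142 and then 170, 116 and 158 in CD45.2 monocytes. The monocytes were 13.02-fold higher on the FPKM + 1 scale (log2 fold change of AΦ to monocytes -3.70, limma adjusted p = 1.48e-09), and the fold was 16.05 in CD45.2 cells and 11.2 in CD45.1 cells at 32 weeks. Nfkbie, at 24.5 to 46.6 FPKM in TR-AΦ and 133 to 249 in monocytes at 4 weeks, gave log2 fold changes of -2.42 (limma adjusted p = 4.35e-12), -2.77 and -2.65 in the 3 comparisons. Nfkbiz gave -1.72 at 4 weeks (limma adjusted p = 6.54e-06), -3.53 in CD45.2 cells and -2.53 in CD45.1 cells at 32 weeks. Its TR-AΦ range at 32 weeks was 14.4 to 60.2 FPKM, far under the 226 to 413 of CD45.2 monocytes. Nfkbia was closer between the cell types (-0.96, -1.35 and -1.09), as were Relb (-1.23, -1.26 and -1.23), Nfkb2 (-0.996, -1.49 and -1.18) and Nfkb1 (-0.95, -0.85 and -0.97).

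The remaining genes overlapped between the cell types in at least 1 comparison. Tnfaip3 did not pass at 4 weeks (-0.51, limma adjusted p = 0.0686) and passed at 32 weeks at -1.56 in CD45.2 and -1.01 in CD45.1 cells. Nfkbid passed only in CD45.2 cells at 32 weeks (-1.23), and in CD45.1 cells it was at -0.53 (limma adjusted p = 0.122). Nfkbib was the closest of those called, at -0.42 (limma adjusted p = 0.0389), -0.54 and -0.44 (limma adjusted p = 0.0302). Leaving out single libraries ended the Nfkbib call in 7 of 12 cases at 4 weeks and in 5 of 12 in CD45.1 cells. Other settings of the processing moved the 4-weeks values more. There Nfkbib ran from -0.43 to -0.17, Tnfaip3 from -0.55 to -0.11 and Nfkbia from -1.06 to -0.58, and 7 to 9 genes were called. Tnfaip3 passed at 4 weeks without the PM2.5 TR-AΦ library numbered 2 (-0.66), and Nfkbid passed in CD45.1 cells without the FA BM-AΦ library numbered 2 (-0.71).

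**Figure D4:**
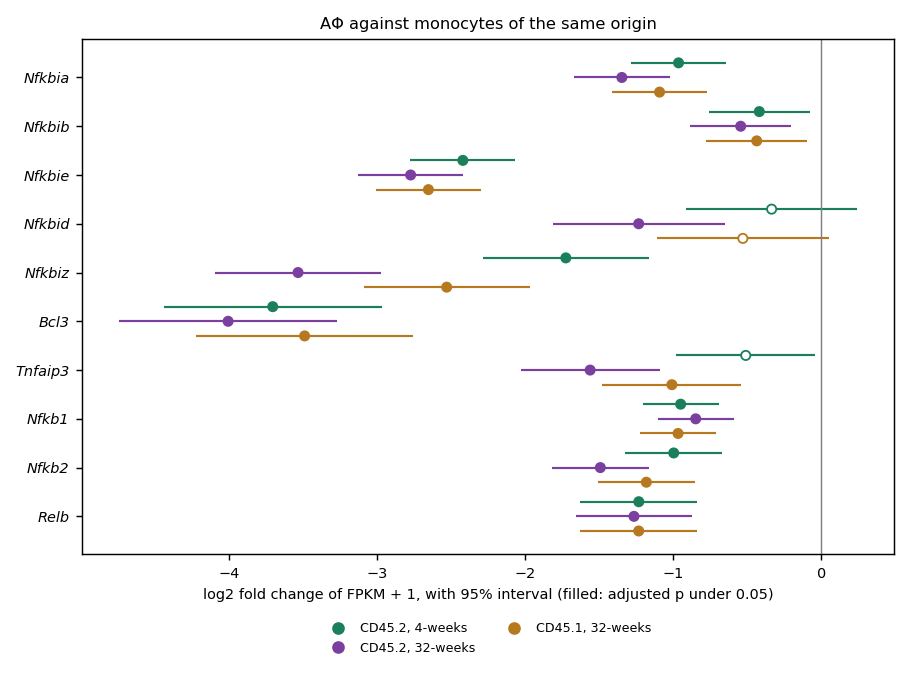
Log2 fold change of AΦ to monocytes on the FPKM + 1 scale with its 95% interval (x axis) for the 10 genes (y axis) in CD45.2 cells at 4 weeks (green), CD45.2 cells at 32 weeks (purple) and CD45.1 cells at 32 weeks (brown), filled where the adjusted p was under 0.05. All points are below 0, and Bcl3 reaches -4.00 in CD45.2 cells at 32 weeks.

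The pathway lists held calls in both directions between the cell types, beside the 48.2%, 47.3% and 50.9% of all genes called at 4 weeks, in CD45.2 cells and in CD45.1 cells at 32 weeks. Of 26 NF-κB targets, 13 were lower and 4 higher in AΦ at 4 weeks, then 14 and 4 and 12 and 6. Of 11 other Rel and IKK genes, 7 were lower and 1 higher at 4 weeks, and 6 were lower and 2 higher in each origin at 32 weeks. Of 23 adaptors, 11 were lower and 3 higher, then 10 and 3 and 9 and 4, shares near that of all genes, with Traf1 the most different each time (-5.44, -4.39 and -3.66). Of 14 A20 partners, 8 were lower and 4 higher at 4 weeks, and 3 and 1 and then 5 and 2 at 32 weeks, where the share called was no higher than that of all genes. Otud7b, a deubiquitinase, was among those higher in AΦ (1.17, 0.43 and 1.08).

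Origin made no detectable difference at 32 weeks. Between BM-AΦ and TR-AΦ, 0 of 10 genes were called by limma (0.316% of all genes in either direction), and 1 had an unadjusted p under 0.05. The estimates ran from -0.10 to 0.72 with 9 of 10 positive, that is higher in BM-AΦ. The largest was Nfkbiz, at 58.3, 29.5 and 72.8 FPKM under FA and 36.3, 39.8 and 36.5 under PM2.5 in BM-AΦ against 20.02, 29.2 and 60.2 and then 14.4, 27.1 and 21.4 in TR-AΦ. These overlapped, and the log2 fold change was 0.72 with a 95% interval of 0.02 to 1.43 (limma adjusted p = 0.648). Bcl3 followed at 0.55 and Nfkbid at 0.43. Between CD45.2 and CD45.1 monocytes, 0 of 10 were called (0.669% of all genes), 0 had an unadjusted p under 0.05 (limma), and the estimates ran from -0.19 to 0.28 with 7 positive.

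PM2.5 against FA was the question the exposure was set up for, and it gave no call among the 10 genes in any population (limma, 0 of 10 in each of 6 comparisons). The background was as low, at 0.0079% of all genes in TR-AΦ at 4 weeks, 0.0158% in BM-AΦ, 0.00778% in CD45.2 monocytes at 4 weeks and 0% in the other 3. The study compared pairs of groups with Cuffdiff at a q-value under 0.05. It reported NF-kappa B signaling as enriched in AΦ at 4 weeks, with lower expression of its genes at 32 weeks. Cuffdiff works from reads and was not run here, so the counts here are not comparable with that result. One gene of 10 had an unadjusted p under 0.05 in TR-AΦ at 32 weeks, 1 in BM-AΦ, and 0 in each of the other 4 populations. Over all 12665 genes 396 and 259 had one in TR-AΦ and BM-AΦ at 32 weeks. Estimates ran from -0.27 to 0.16 in TR-AΦ at 4 weeks and from -0.32 to 0.16 in CD45.2 monocytes at 4 weeks. At 32 weeks they ran from -0.67 to 0.24 in TR-AΦ and from -0.56 to -0.0047 in BM-AΦ. They ran from -0.76 to 0.36 in CD45.1 monocytes and from -0.67 to 0.31 in CD45.2 monocytes. In the last 3, 10 of 10, 8 of 10 and 9 of 10 were negative. In TR-AΦ at 4 and at 32 weeks and in CD45.2 monocytes at 4 weeks, 7 of 10 were negative. The median estimate over all genes lay between -0.02 and 0.03 in these comparisons. The 10 genes varied together within groups, so their signs are not independent.

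The gene behind both unadjusted values was Nfkbia. In TR-AΦ at 32 weeks its PM2.5 libraries read 156, 171 and 134 FPKM and its FA libraries 201, 205 and 310, with no overlap (2.76% of all genes did the same in that direction). The log2 fold change was -0.61 with a 95% interval of -1.07 to -0.15 (unadjusted p = 0.013, limma adjusted p = 1). In BM-AΦ the PM2.5 libraries read 179, 190 and 146 FPKM and the FA libraries 252, 194 and 322, again without overlap (3.66% of all genes). There the log2 fold change was -0.56 with an interval of -1.02 to -0.09 (unadjusted p = 0.022, limma adjusted p = 1). An exact two-sided permutation test gave p = 0.1 in each, the smallest that 3 libraries against 3 allow. TR-AΦ and BM-AΦ at 32 weeks may come from the same mice, so these are not shown to be independent. In TR-AΦ at 4 weeks Nfkbia read 687, 557 and 769 FPKM under PM2.5 and 643, 775 and 631 under FA, fully overlapping.

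Other feedback genes had estimates of at least 0.4 in size at 32 weeks, none of them called. In TR-AΦ they were Nfkbiz (-0.67), Tnfaip3 (-0.61) and Bcl3 (-0.60), in BM-AΦ Tnfaip3 (-0.45) and Nfkbiz (-0.41), in CD45.1 monocytes Bcl3 (-0.76), and in CD45.2 monocytes Bcl3 (-0.67) and Tnfaip3 (-0.49). Nfkb1 in CD45.1 monocytes was the reverse case, with all 3 PM2.5 libraries above all 3 FA libraries (6.49% of all genes did so in that direction) and no call. The interactions of exposure with time in TR-AΦ and of exposure with origin in AΦ at 32 weeks called 0 of 10 genes each (limma, 0.0079% and 0.0158% of all genes), and 0 had an unadjusted p under 0.05 in either.

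**Figure D5:**
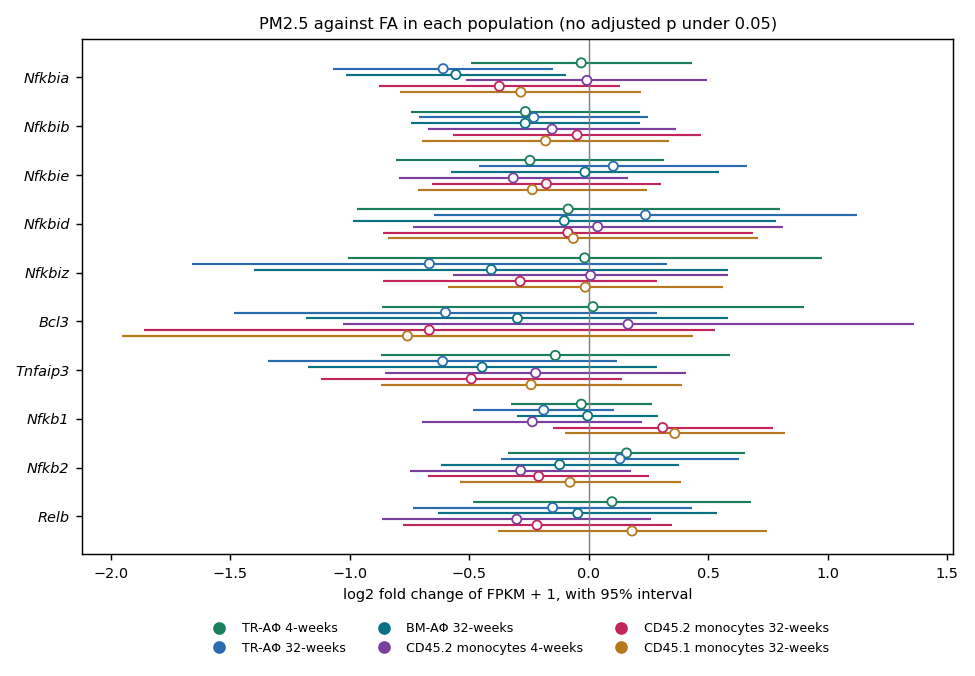
Log2 fold change of PM2.5 to FA on the FPKM + 1 scale with its 95% interval (x axis) for the 10 genes (y axis) in the 6 populations given by color. No adjusted p was under 0.05, and the intervals that leave out 0 are those of Nfkbia in TR-AΦ (-1.07 to -0.15) and BM-AΦ (-1.02 to -0.09) at 32 weeks.

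Likeness to the 10 genes was measured as Pearson r with their mean z-score over 12 group means of log2(FPKM + 1), centred within cell type. The 5 other genes most like that score among 13297 were Ppp1r15a (0.994), Ccrl2 (0.991), Areg (0.986), Cflar (0.985) and Slc20a1 (0.982), none of them on a pathway list. Ppp1r15a, which encodes the stress-induced phosphatase subunit GADD34, read 55.4 to 99.2 FPKM in TR-AΦ at 4 weeks and 10.1 to 22.7 at 32 weeks. Ccrl2, a chemerin-binding receptor, read 285 to 441 and then 36.7 to 138. Areg, the growth factor amphiregulin, read 34.9 to 56.0 and then 3.41 to 12.7 in TR-AΦ, and only 8.75 to 17.9 and 1.16 to 6.79 in CD45.2 monocytes. These correlations are descriptions over 12 points that share libraries, and the 4-weeks to 32-weeks step carries most of the spread.

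Within groups the genes also varied together. After subtracting each group's mean, 39 of 45 gene pairs correlated positively over 18 AΦ libraries (median r 0.44, from -0.56 to 0.82) and 41 of 45 over 18 monocyte libraries (median r 0.50, from -0.52 to 0.92). With Nfkbia the closest in AΦ were Nfkbid (0.75), Tnfaip3 (0.69) and Nfkbiz (0.65), and Nfkb2 went the other way (-0.26). In monocytes the closest was Nfkbie (0.69), and Nfkb1 was at -0.31. With the summed immediate early genes r ran from -0.02 for Nfkbid to 0.82 for Relb in AΦ and from -0.27 for Bcl3 to 0.60 for Tnfaip3 in monocytes. Libraries share depth and handling, and these values are given without a test.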

How the data were processed

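Messenger RNA of sorted lung AΦ (18 libraries) and monocytes (18 libraries) was sequenced after SMART-Seq stranded library preparation. Per the labels and the study's methods, the authors trimmed reads with TrimGalore, aligned them to mm10 with STAR and estimated FPKM with Cufflinks and Cuffdiff. The deposited values are FPKM per gene, and no read counts were analysed here, so the depth of each library is unknown and no counting interval is given. The summed FPKM of a library was 1839577 to 3339020, which is no measure of depth.

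Values were taken as log2(FPKM + 1), and fold changes on this scale understate those of low genes. Genes averaging 1 FPKM or more in a model's libraries were fitted with limma 3.58.1 (R 4.3.3), with a mean for each group and an intensity trend, separately for AΦ (12665 genes), monocytes (12856) and both (13307). Benjamini-Hochberg adjustment ran over all genes of a model in each of 20 comparisons, at a threshold of 0.05. Single genes were also tested by exact two-sided permutation. The 10 genes and the lists were chosen with earlier results of these data known. In each comparison all 10 were described, and from each list at most the 3 called genes with the largest log2 fold change. Coordinates are those of GENCODE vM21 (mm10). The κB-like letters were chosen after a search with a longer form had been seen.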

Additional observations from a re-analysis of the deposited data

Results flagged for a closer look

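A pair of genes changed by different amounts over time in TR-AΦ and in CD45.2 monocytes by the test of the difference itself. From 4 to 32 weeks the log2 fold change of Nfkbiz was -3.27 in TR-AΦ and -1.46 in CD45.2 monocytes, an interaction of -1.81 in the model of all 36 libraries (limma adjusted p = 0.00320). Every 32-weeks library lay below every 4-weeks library in both cell types. The log2 fold change of Tnfaip3 was -2.44 in TR-AΦ and -1.39 in CD45.2 monocytes, an interaction of -1.05 (limma adjusted p = 0.0434). The Tnfaip3 difference was lost on leaving out any of 17 of 24 libraries singly. Groups held 3 libraries, so no single library was tested for distance from its group.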

How the results depend on the processing

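Under the alternatives tried (quantile normalization, median centring on genes averaging 10 FPKM or more, no low-value filter, 0.1 as the pseudocount, only the libraries compared, blocks, single libraries left out and, chosen after seeing the data, the 4-weeks libraries numbered 2 left out), none of 1937 values of the 109 member results that were called or at least 0.4 in size changed direction. Of these, 1761 stayed on their side of the threshold, 160 lost a call and 16 gained one. Of 91 smaller values 47 changed sign under at least 1 alternative. No member was called for PM2.5 in any of 120 alternatives to 8 comparisons.

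Counts of genes called among the 10 moved as follows. With only the libraries compared, the change with time called 1 in TR-AΦ under FA and 1 under PM2.5 (7 each otherwise), 2 in monocytes under FA (6 otherwise) and 0 under PM2.5 (4 otherwise), and the interaction of cell type and time called 1 (2 otherwise). That setting has fewer libraries. The interaction called 1 with no filter and 1 without the 4-weeks libraries numbered 2, which also gave 3 in TR-AΦ and 1 in monocytes under PM2.5. With single libraries left out, counts ran from 3 to 5 in TR-AΦ under FA, 3 to 7 under PM2.5, 3 to 6 in monocytes under FA, 1 to 4 under PM2.5, and 1 to 3 for the interaction. Under FA, TR-AΦ gave 3 without the 4-weeks library numbered 0 or the 32-weeks library numbered 0 and 4 without the 4-weeks library numbered 1, and monocytes gave 3 without the 4-weeks library numbered 2. Under PM2.5, TR-AΦ gave 3 without the 4-weeks library numbered 2 or the 32-weeks libraries numbered 0 or 2 and 4 without either library numbered 1, and monocytes gave 1 without the 4-weeks library numbered 2 and 2 without the 32-weeks library numbered 2. With both exposures the ranges were 8 to 9 and 7 to 9. Between AΦ and monocytes the counts ran from 7 to 9 at 4 weeks and from 8 to 10 in CD45.1 cells at 32 weeks. They stayed at 10 in CD45.2 cells at 32 weeks. These ranges were the same under the other settings.

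Only libraries of one air and time can share a mouse. There, correlations of the deviations of same-numbered samples had a median of 0.05 at 4 weeks (-0.01 for other numbers). At 32 weeks it was 0.03 (-0.02 for other numbers). These correlations were over 0.1 in 0 of 6 and 2 of 36 cases, so the numbers were not taken to pair samples. Between exposures, where no mouse can be shared, they were over 0.1 in 4 of 12 cases at 4 weeks. Their median was 0.08, against -0.03 for other numbers. At 32 weeks 2 of 48 were over 0.1. Correlations among the 4-weeks libraries numbered 2 ran from 0.05 to 0.21. A replicate block gave 9 genes lower in TR-AΦ and 9 in monocytes with both exposures, 7 and 8 in TR-AΦ and 7 and 5 in monocytes under FA and PM2.5, and 0 for PM2.5 throughout.

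Over all genes the number called moved more. The change with time called 748 in TR-AΦ, 1308 with a replicate block and 378 with only the libraries compared. In monocytes it called 1914, and 1156 without the 4-weeks libraries numbered 2. Within FA the counts were 99 (15 to 209 under the alternatives) and 927 (270 to 1473), and within PM2.5 133 (18 to 404) and 311 (15 to 676). The interaction called 1049 (668 to 1808), BM-AΦ against TR-AΦ 40 (15 to 98), CD45.2 against CD45.1 monocytes 86 (45 to 157), and no comparison of PM2.5 with FA more than 11. Median centring moved the median of all genes by 0.18 and 0.12 in monocytes under FA and PM2.5, by 0.15 with both, by 0.17 between cell types at 4 weeks and by -0.18 in the interaction. Depth limits could not be stated from FPKM.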

Other observations

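Further genes with a course like that of the 10 were found among the 5 nearest. Cflar, which encodes the caspase-8 inhibitor cFLIP, read 26.7 to 76.3 FPKM in TR-AΦ at 4 weeks and 14.7 to 24.3 at 32 weeks, and 44.1 to 100.8 and then 25.9 to 51.7 in CD45.2 monocytes. Slc20a1, a phosphate transporter, read 25.9 to 36.2 and then 9.43 to 16.4 FPKM in TR-AΦ, and 45.7 to 70.1 and then 23.2 to 47.0 in CD45.2 monocytes. Slc20a1 did not overlap between the time points in TR-AΦ, nor did Cflar. Both were picked for likeness to a score that falls between the time points, so this separation follows in large part from the choice.

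Within a group of BM-AΦ under PM2.5 at 32 weeks, 1 library, that numbered 1, was the highest of its 3 for 10 of 10 genes. In that group Nfkbia spanned only 146 to 190 FPKM.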
